A study of Mus musculus with 10 samples.

Results

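AP-1 is a dimer of basic leucine zipper (bZIP) transcription factors, and the genes described here are those of its Fos and Jun families with the related factors Atf3, Batf3 and Jdp2. They are Fos, Fosb, Fosl1, Fosl2, Jun, Junb, Jund, Atf3, Batf3 and Jdp2, 10 genes of the 20206 in the table. The entry of each symbol was to be selected on the highest mean over all lines, but each of the 10 symbols had 1 entry, so none was chosen by its level. The 10 genes themselves were proposed with earlier results of the diet comparison known, so the counts below are not independent evidence of a direction.

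RNA was sequenced from 10 mouse embryonic stem cell (ESC) lines, each derived from a blastocyst of a different mother. All lines were wild-type C57Bl/6 ES cells labelled male, were at low passage and were harvested after culture without fibroblasts. The mothers were 7 to 9 weeks old and were fed either a low protein diet (LPD, 9% casein) or a normal protein diet (NPD, 18% casein) of equal calories from the day after mating to embryonic day 3.5. The comparison asks whether lines from the 5 LPD and the 5 NPD mothers, grown afterwards in the same way, differ in these genes.

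Fos proteins cannot pair with each other and need a Jun partner, while Jun proteins can pair with themselves, with Fos proteins or with other bZIP factors. Fos, Fosb, Jun, Junb and Atf3 are immediate early genes, transcribed within minutes of serum, growth factor or stress signals through MAP kinases, whereas Jund is transcribed steadily in most cells. Atf3 and Jdp2 mostly repress from the same DNA elements, and in pluripotent cells Jun is known for its link to differentiation.

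The value of a gene in a line is an estimated count normalized between the lines. Totals per line were 16398672 to 18324979. From low values of genes with 1 transcript, 1 read was worth 0.762, 2.88, 1.39, 0.755 and 1.58 in LPD lines 1, 4, 6, 20 and 40, and 0.724 to 0.851 in the NPD lines. This corresponds to 21820710, 5846049, 12330944, 24264132 and 11246587 read equivalents in the LPD lines and 20299709 to 23183994 in the NPD lines. LPD lines 4, 6 and 40 were thus the shallowest, and low values there are the least precise.

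The defining ESC markers were present in every line, with 0 of 10 at 0, and Dppa5a, the most abundant by the mean over all lines, lay between 22436 and 35842. Ddx3y, on the Y chromosome, had values of 1109.7 to 1493 in 8 lines, but 174 in LPD line 4 and 7.70 in NPD line 15, where X-linked genes also had a median deviation of 0.49 on the log2 scale. Of Y-linked genes 4 were tested and 0 had an unadjusted p under 0.05. These lines are called by their labels, and fold changes were also computed without both of them.

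Lines were compared with limma on log2(value + 1), which understates changes of genes with low values, and every log2 fold change below is LPD minus NPD, with its standard error (SE). A mean of 10 or more was required, which 14354 genes reached, all 10 members among them. At a Benjamini-Hochberg adjusted p under 0.1 in limma, 0 of the 10 members passed, as did 0 of all genes tested (0%), against 721 genes at an unadjusted p under 0.05. All 10 members had a log2 fold change above 0, as did 50.5% of all genes. At an unadjusted p under 0.05, 7 members were higher in LPD and 0 lower, where 2.84% of all genes were higher and 2.18% lower. Of these 7, Fosb had a mean of 9.41 in NPD and 179 in LPD and so was tested only because of its LPD values. The median of the members was 1.30, against 0.00 over all genes. Single genes had 5th and 95th percentiles of -0.44 and 0.43, which do not give the spread of a median of 10 genes. Without LPD lines 1 and 4, a pair chosen after seeing the data, the median of the members was 0.64. In 2 members, Jund and Atf3, and in 0.523% of all genes, the LPD values were all above the NPD values. At least 4 LPD lines lay above every NPD line in 6 members and in 3.09% of all genes. Of all genes at an unadjusted p under 0.05, 56.6% were higher in LPD, against 40.2% with the totals of the lines made equal and 51.1% after quantile normalization, and all 10 members stayed above 0 under both.

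**Figure D1:**
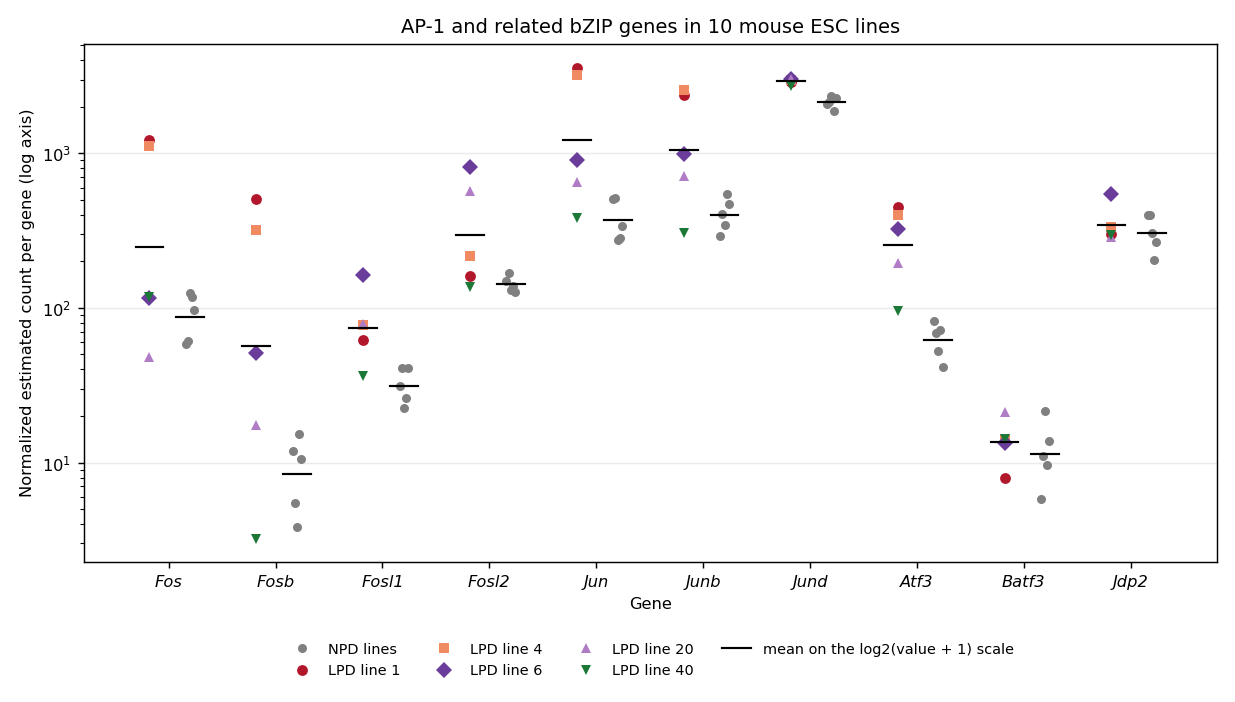
Normalized estimated count of each of the 10 genes (log axis) in the 5 LPD lines, each with its own symbol, and the 5 NPD lines in grey, with the mean of each diet on the log2(value + 1) scale as a bar. In Fos, Fosb, Jun and Junb LPD lines 1 and 4 stand above all other lines, in Fosl2 LPD lines 6 and 20 do, and only in Jund and Atf3 do the diets not overlap.

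Fos (ENSMUSG00000021250, chromosome 12, 85473890 to 85477273), the founding subunit of AP-1, had values of 1227, 1109.7, 116, 48.3 and 117 in LPD lines 1, 4, 6, 20 and 40. In NPD lines 8, 15, 21, 36 and 51 it had 58.2, 60.8, 125, 118 and 96.8. LPD lines 1 and 4 were far above every other line, LPD lines 6 and 40 lay among the NPD lines, and LPD line 20 had the lowest value of all. Line 1 was 9.84 times and line 4 8.90 times the highest NPD line. Fos had a log2 fold change of 1.49 (SE 0.78, limma adjusted p = 0.994), and the diets could not be separated (two-sided exact permutation test, p = 0.278). Without LPD lines 1 and 4, left out after seeing the data, it was -0.01, and 2.62 without LPD lines 6 and 20. It was 0.91 without LPD line 1, 0.94 without LPD line 4, 0.82 without LPD line 4 and NPD line 15, and 0.84 with sequencing depth as a covariate. In bulk RNA, fewer cells of a type and less RNA per cell cannot be told apart.

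Fosb (ENSMUSG00000003545, chromosome 7, 19302696 to 19310051), a close relative of Fos, had values of 505, 319, 50.8, 17.6 and 3.22 in the LPD lines in the same order. The NPD lines had 11.9, 5.44, 3.84, 15.3 and 10.5. LPD lines 1 and 4 again led, LPD line 6 lay between them and the NPD lines, LPD line 20 was just above the highest NPD line, and LPD line 40 was below them all. The LPD line 40 value stands for 2.04 reads and those of the NPD lines for 5.09 to 21.2 reads, so the order among these lines rests on few reads. Its log2 fold change of 2.62 (SE 1.08, limma adjusted p = 0.952) had 4 LPD lines higher than all NPD lines, but the gene reached the mean required for the test only through LPD, so its place among the members shows nothing further. By the exact permutation test (two-sided) p was 0.0952, and without LPD lines 1 and 4 the log2 fold change was 0.75.

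Fosl1 and Fosl2 encode the Fos-related antigens, which lack the strong activation domain of Fos. Fosl1 (ENSMUSG00000024912, chromosome 19, 5447547 to 5455946) had 61.8, 77.6, 163, 79.2 and 36.4 in the LPD lines and 31.2, 41.0, 22.6, 26.0 and 40.9 in the NPD lines. Here LPD line 6 was highest, LPD lines 1, 4 and 20 lay close together, and LPD line 40 fell within the NPD range. The log2 fold change was 1.21 (SE 0.35, limma adjusted p = 0.665; two-sided exact permutation test, p = 0.0238), and 0.81 to 1.47 over the alternatives. An exon of Fosl1 shares 1055 bases with Ccdc85b on the opposite strand. Reads from there can be assigned to 1 of them only if the library kept the strand, which was not tested. Ccdc85b had a log2 fold change of -0.21 (SE 0.17), and the part of these reads in the Fosl1 values was not tested.

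Fosl2 (ENSMUSG00000029135, chromosome 5, 32135801 to 32157842) had 162, 217, 812, 573 and 137 in the LPD lines and 149.6, 168, 130.2, 139 and 127 in the NPD lines. The lines that led differed from those of Fos, with LPD line 6 at 4.83 times and LPD line 20 at 3.41 times the highest NPD line and LPD lines 1 and 40 within the NPD range. The NPD lines were close together, with an SD of 0.16 on the log2 scale against 1.14 in LPD. Between the diets the log2 fold change was 1.05 (SE 0.42, limma adjusted p = 0.952; two-sided exact permutation test, p = 0.0556). It was 0.69 without LPD line 6 and 0.25 without LPD lines 6 and 20, a pair left out after seeing the data.

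Jun (ENSMUSG00000052684, chromosome 4, 95049034 to 95052222), which forms both homodimers and heterodimers with Fos, is annotated as 1 exon of 3189 bases. Its values were 3589, 3226, 899, 656 and 381 in the LPD lines and 503, 518, 274, 285 and 340.3 in the NPD lines. LPD lines 1 and 4 were at 6.93 and 6.22 times the highest NPD line, LPD lines 6 and 20 were above it by less, and LPD line 40 was among the NPD lines. For Jun the log2 fold change was 1.71 (SE 0.54, limma adjusted p = 0.699; two-sided exact permutation test, p = 0.0317). Without LPD lines 1 and 4 it was 0.72. The annotated antisense RNA Junos shares 232 bases with the exon, and its part in the value was not tested.

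Junb (ENSMUSG00000052837, chromosome 8, 84974484 to 84978718), a weaker activator than Jun that can oppose it, had 2389, 2584, 986, 716 and 304 in the LPD lines. The NPD lines had 293, 407, 343, 544 and 472. The order of the LPD lines resembled that of Jun, with LPD lines 1 and 4 highest, LPD lines 6 and 20 next and LPD line 40 near the lowest NPD line. Junb had a log2 fold change of 1.39 (SE 0.48, limma adjusted p = 0.839; two-sided exact permutation test, p = 0.0556), and 0.57 without LPD lines 1 and 4. Without LPD line 40 it was 1.84 with an adjusted p of 0.0942 in limma (0.0942 to 1.000 over the alternatives). This omission gave the lowest adjusted p of the alternatives, and 40 of all genes were then under 0.1. An exon of Prdx2 on the opposite strand overlaps Junb by 173 bases, and Prdx2 had a log2 fold change of -0.04 (SE 0.08), its part in the Junb values not being tested.

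Jund (ENSMUSG00000071076, chromosome 8, 70698949 to 70700616) is the steadily transcribed Jun gene, with 1 exon of 1668 bases. It had 2912, 2973, 3046, 3040.2 and 2735 in the LPD lines and 2094, 2141, 2362, 1873 and 2276 in the NPD lines. The LPD lines were close together and all above the NPD lines, LPD line 40 included, and LPD lines 1 and 4 did not lead. The SD on the log2 scale was 0.06 in LPD and 0.13 in NPD, against 1.43 and 0.44 for Jun. The log2 fold change of 0.46 (SE 0.08, limma adjusted p = 0.290) had the unadjusted p at rank 3 of all genes tested and lay between 0.41 and 0.49 over the alternatives. The exact permutation test gave p = 0.00794 (two-sided), the smallest that 5 against 5 lines can give. Without LPD line 40 the adjusted p was 0.0572 in limma, the lowest of the alternatives (0.0572 to 0.999), and 40 of all genes were then under 0.1. The values of Jund were identical in every line to those of ENSMUSG00000110974, which has no name or position in the annotation used, so reads cannot be assigned to 1 of them and the level may be a share of the whole. The annotated gene Gm11175 overlaps the Jund exon by 543 bases on the opposite strand and is not in the table.

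**Figure D2:**
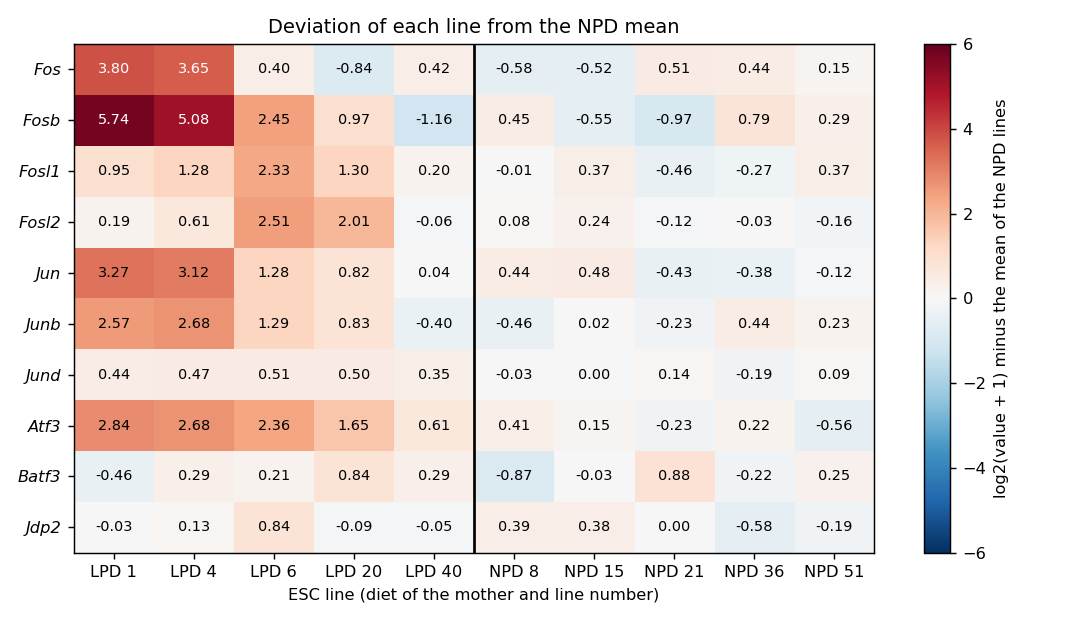
Difference on the log2(value + 1) scale between each line and the mean of the 5 NPD lines, for each gene (vertical) and line (horizontal), with red above and blue below 0. LPD line 1 reaches 5.74 in Fosb, LPD line 6 reaches 2.51 in Fosl2, the Jund values of the LPD lines stay between 0.35 and 0.51, and LPD line 40 does not exceed 0.61 in any gene.

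Atf3 (ENSMUSG00000026628, chromosome 1, 191170296 to 191218039), a stress-induced factor that pairs with Jun proteins or with itself, had 448, 401, 322, 196 and 94.9 in the LPD lines. In the NPD lines it had 82.5, 68.7, 52.6, 72.3 and 41.5. LPD lines 1, 4 and 6 were highest and LPD line 20 next, and LPD line 40 too was above every NPD line, at 1.15 times the highest. The ratio of the diet means was 4.60 and the log2 fold change 2.03 (SE 0.38, limma adjusted p = 0.290), the unadjusted p being at rank 6 of all genes tested. The diets did not overlap (two-sided exact permutation test, p = 0.00794), and the log2 fold change was 1.54 to 2.38 over the alternatives, 1.54 without LPD lines 1 and 4 and 1.98 with depth as a covariate. Without LPD line 40 it was 2.38, with an adjusted p of 0.00467 in limma, the lowest of the alternatives (0.00467 to 0.999). With that line left out, 40 of all genes were under 0.1.

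Batf3 and Jdp2 were the members with the least difference. Batf3 (ENSMUSG00000026630, chromosome 1, 191097847 to 191108945), a short bZIP factor known from dendritic cells, had 7.99 to 21.2 in the LPD lines and 5.77 to 21.7 in the NPD lines, which stand for 4.89 to 28.9 reads. The diets overlapped in full, and the log2 fold change was 0.23 (SE 0.41, limma adjusted p = 0.994), 0.02 without NPD line 8, 0.08 without LPD line 20 and 0.45 without NPD line 21. Jdp2 (ENSMUSG00000034271, chromosome 12, 85599027 to 85639878), a repressor that pairs with Jun proteins, had 299, 335, 549.8, 287 and 295 in the LPD lines and 204 to 401 in the NPD lines. LPD line 6 alone was above the NPD range, and the log2 fold change of 0.16 (SE 0.22; two-sided exact permutation test, p = 0.548) was -0.01 without it. The annotated gene Gm47863 overlaps an exon of Jdp2 by 165 bases on the opposite strand and is not in the table. For both genes a difference could not be detected at this spread, with 95% intervals of -0.65 to 1.11 for Batf3 and -0.32 to 0.64 for Jdp2.

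Levels of different genes were compared per kilobase of the longest coding transcript. By the mean of the NPD lines, Jund came first at 1289 per kb, then Junb at 228, Jdp2 at 192, Jun at 120.5 and Fos at 43.5. Lower in NPD were Atf3 at 32.0, Fosl2 at 21.8, Fosl1 at 17.4, Batf3 at 15.5 and Fosb at 2.49 per kb. By the mean of the LPD lines, Jund at 1763 and Junb at 771 per kb were followed by Jun at 549, Fos at 248, Jdp2 at 215 and Atf3 at 147. Fosl2 at 58.2, Fosb at 47.3, Fosl1 at 44.8 and Batf3 at 17.7 per kb came last in LPD. The places of Jun, Fos and Fosb in the LPD order rest on lines 1 and 4. In LPD lines 6, 20 and 40 Fos per kb was below Jdp2, and Fosb below both Fosl1 and Batf3, and Jun was below Jdp2 in LPD lines 6 and 40. Differences between neighbours in these orders were not tested. In the NPD lines Jund made up 74.2% to 83.7% of the summed Jun family per length. In LPD lines 1 and 4 its share was 41.6% and 42.2%, and the shares of Junb and Jun were 31.5% and 26.9% in line 1 and 33.8% and 24.0% in line 4. LPD line 40 had a Jund share of 85.1%, above that of every NPD line. Jund remained the leading Jun gene in all 10 lines, with the limit given above on its level.

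Among the Fos genes the leading gene was not the same in all lines. Fos led in every NPD line, with 37.0% to 64.1% of the summed Fos family per length. It made up 75.2% and 76.8% in LPD lines 1 and 4, whose family sums of 773 and 686 per kb compare with 70.4 to 95.4 in the NPD lines. In LPD lines 6 and 20 Fosl2 led, with 44.4% and 55.6%, ahead of Fosl1 with 31.2% and 26.9%, and the sums were 279.8 and 158 per kb. LPD line 40 had a sum of 96.7 per kb and 57.3% Fos. The summed Jun family was above the summed Fos family in each line, between 1513 and 4222 per kb.

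**Figure D3:**
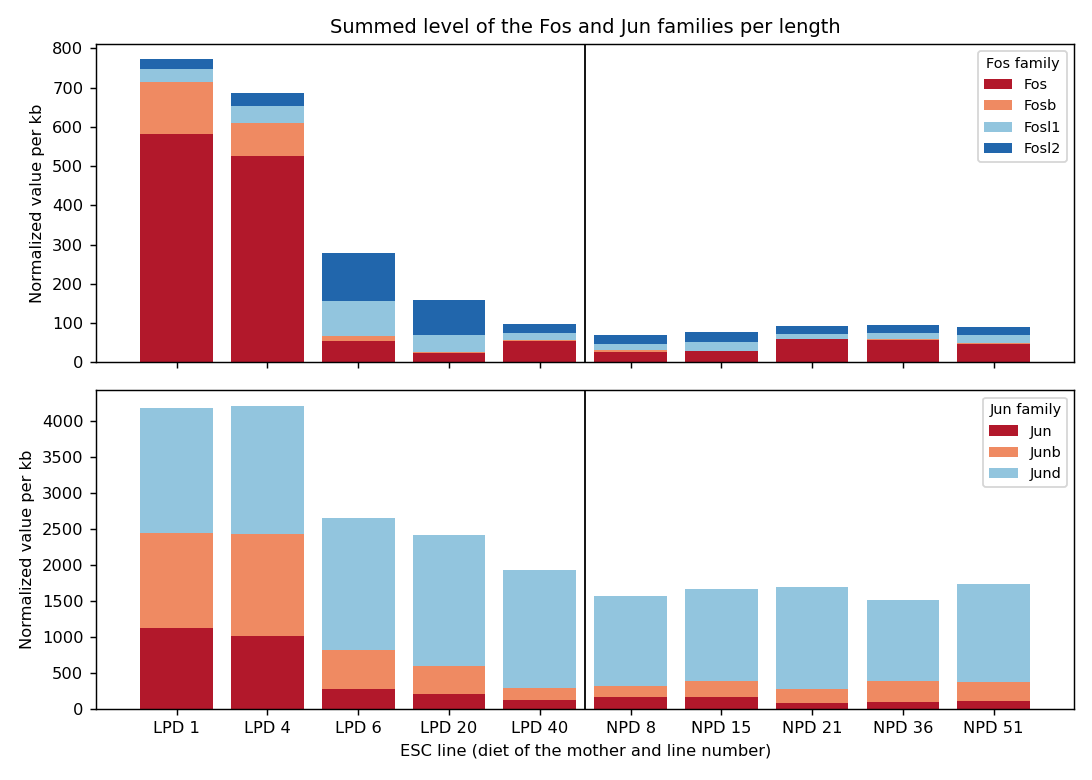
Summed normalized value per kilobase of the Fos family (top) and the Jun family (bottom) in each line, stacked by gene, with the LPD lines left and the NPD lines right of the black line. Fos fills most of the bar in LPD lines 1 and 4 (773 and 686 per kb in sum), Fosl2 is the largest part in LPD lines 6 and 20, and Jund is the largest part of every Jun bar.

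The LPD lines also differed among themselves. Of the 10 members, 7 in LPD line 1, 8 in line 4, 8 in line 6, 7 in line 20 and 2 in line 40 were above every NPD line. Over all genes tested the same held for 18.4% in LPD line 1, 19.0% in line 4, 22.3% in line 6, 23.2% in line 20 and 22.0% in line 40, so that the count of line 40 was near the share of all genes. The median deviation of the members from the NPD mean was 1.76, 1.98, 1.29, 0.84 and 0.12 on the log2 scale in these lines, and -0.18 to 0.12 in the NPD lines. Line 40, from an LPD mother, thus had the median of the highest NPD line. Lines 1 and 4, with the highest medians, had 21820710 and 5846049 read equivalents, and the depth of the lines differed between the diets. With depth as a covariate, 5 members instead of 7 had an unadjusted p under 0.05 in limma, with Fosb and Junb no longer among them. The count over all genes tested also fell, from 721 to 601. The median log2 fold change of the members was 1.19 with this covariate, against 1.30 without it. Fosb had 2.29 instead of 2.62, while Fos fell from 1.49 to 0.84.

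**Figure D4:**
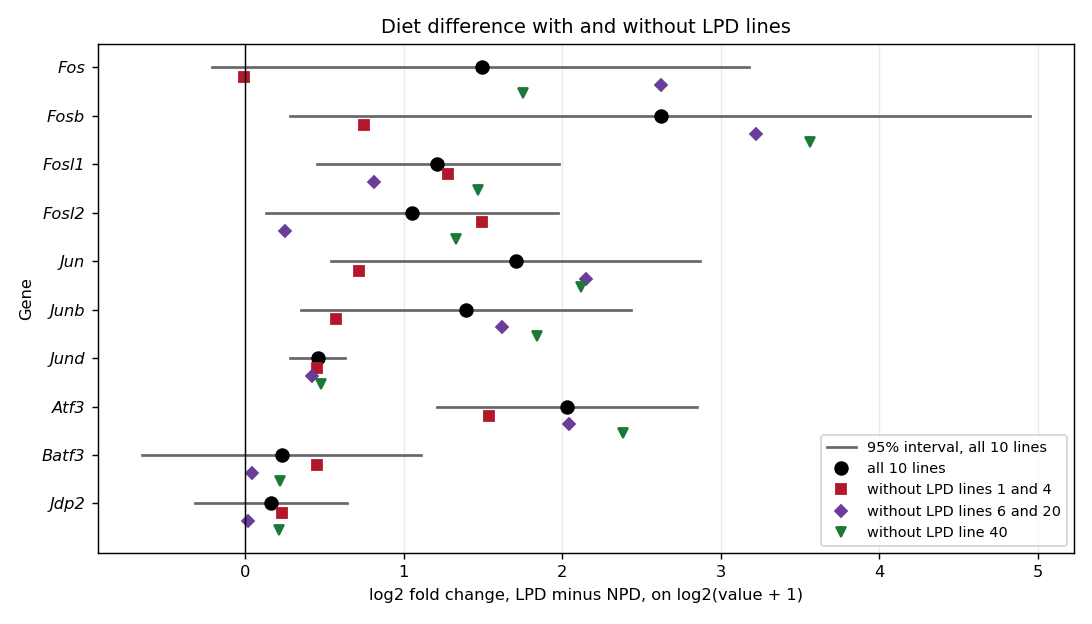
Log2 fold change (LPD minus NPD) of each gene from all 10 lines with its 95% interval, and the values after LPD lines 1 and 4, LPD lines 6 and 20, or LPD line 40 were left out. Fos goes from 1.49 to -0.01 without LPD lines 1 and 4 and Fosl2 from 1.05 to 0.25 without LPD lines 6 and 20, while Jund stays within 0.42 to 0.48.

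Upstream of AP-1, MAP kinases and the nuclear factors they act on set the transcription of Fos and Jun. Of 20 such genes tested, 2 were higher in LPD at an unadjusted p under 0.05 and 0 lower, where all genes had 2.84% and 2.18%. The median log2 fold change of the 20 was 0.00, and 0 had an adjusted p under 0.1. The 2 higher genes were Srf and Rps6ka3. Srf, the factor that binds the serum response element of Fos, had 2121, 2314, 2107, 2347 and 1136 in the LPD lines and 689, 933, 1118, 976 and 1276 in the NPD lines. Lines 1, 4, 6 and 20 were alike and above the NPD range, and line 40 lay within it. The log2 fold change of Srf was 0.99 (SE 0.21, limma adjusted p = 0.341; two-sided exact permutation test, p = 0.0159). Rps6ka3, which encodes the RSK2 kinase, had 525 to 994 in the LPD lines and 358 to 609 in the NPD lines, with a log2 fold change of 0.46 (SE 0.19, limma adjusted p = 0.952; two-sided exact permutation test, p = 0.0556). RNA levels do not measure the activity of these kinases.

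Of 10 genes for proteins that bind Jun and Fos proteins or direct their turnover, 0 had an unadjusted p under 0.05 in either direction, and their median was -0.06. Sirt1, a deacetylase, had the smallest p of these, with values of 2076 to 3544 in LPD and 1866 to 2845 in NPD (two-sided exact permutation test, p = 0.278).

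Other bZIP factors can take the place of a Fos or Jun partner. Of 23 in the table, 20 were tested, and 3 were higher at an unadjusted p under 0.05 and 0 lower, where all genes had 2.84% and 2.18%. The median of the 20 was 0.16, which was 0.06 without LPD line 6 and -0.01 without LPD lines 6 and 20. The 3 were Maff, Atf4 and Mafk. Maff, a small Maf protein, had 599, 590.1, 708, 812 and 389 in the LPD lines and 132, 166, 305, 185 and 281 in the NPD lines, so that the diets did not overlap (log2 fold change 1.56, limma adjusted p = 0.227; two-sided exact permutation test, p = 0.00794). Mafk, its close relative, had 712, 668, 415, 446 and 344 in the LPD lines and 285 to 388 in the NPD lines, with LPD lines 1 and 4 highest. Its log2 fold change was 0.60 (SE 0.19, limma adjusted p = 0.741; two-sided exact permutation test, p = 0.0159). Atf4, a regulator of amino acid stress genes, had 6125 to 8594 in LPD and 4678 to 6376 in NPD (limma adjusted p = 0.435). Batf, Batf2 and Maf had means under 10 and were not tested.

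Immediate early genes outside AP-1 share its inputs. Of 16 tested, 10 were higher in LPD at an unadjusted p under 0.05 and 0 lower, where all genes had 2.84% and 2.18%. The median of the 16 was 0.84, and 0 had an adjusted p under 0.1. The list holds Srf, given above, and was written with earlier results known. Of the 10, Egr2 and Egr3, named after their values were seen, reached the mean required for the test only through LPD lines. Egr2 had 329, 294, 12.2, 10.0 and 0 in the LPD lines and 0.573 to 5.00 in the NPD lines, and Egr3 had 345, 527, 50.8, 110.4 and 4.54 against 4.69 to 11.3. Lines 1 and 4 were highest in both, and line 40 was below every NPD line. With 1 read worth 1.58 in line 40 and 0.724 to 0.851 in the NPD lines, the place of line 40 rests on few reads. The values of Egr2 were identical to those of 1 other entry, so its reads cannot be assigned to 1 of them. Ccn1, a secreted matrix protein, had 10567, 10389.9, 5289.9, 5812 and 1330.0 in the LPD lines and 991 to 1705 in the NPD lines. Lines 1 and 4 were highest, lines 6 and 20 were between, and line 40 was among the NPD lines, as in Jun. The log2 fold change of Ccn1 was 2.01 (SE 0.45, limma adjusted p = 0.432; two-sided exact permutation test, p = 0.0317). Klf6, a zinc finger factor, had 2125, 1835, 2124, 1950.2 and 974 in the LPD lines and 774 to 1113 in the NPD lines, and here lines 1 and 4 did not stand above lines 6 and 20 (two-sided exact permutation test, p = 0.0317). Gadd45b, a stress sensor, had 814 to 1365 in LPD and 515 to 876 in NPD. Dusp1, a phosphatase that switches off MAP kinases, had 1136 to 2303 in LPD and 657 to 1166 in NPD. Nr4a1, an orphan nuclear receptor, had 871 to 2825 in LPD and 679.6 to 1080.1 in NPD. In Gadd45b, Dusp1 and Nr4a1, 4 LPD lines exceeded the highest NPD line, with exact permutation p values of 0.0159 (two-sided) in each. The line order that sets lines 1 and 4 apart was thus seen in some of these genes and not in others.

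Textbook targets of AP-1 include proteases, receptors and growth factors. Of 20 in the table, 17 were tested, and 3 were higher at an unadjusted p under 0.05 and 0 lower, where all genes had 2.84% and 2.18%. The median log2 fold change of the 17 was 0.22. It was 0.02 without LPD lines 6 and 20, 0.10 without LPD line 6 and 0.35 without LPD line 4. Without NPD line 15 it was 0.43, and without LPD lines 1 and 4 it was 0.49. Plaur, the urokinase receptor, had 696, 672, 2721, 2380.1 and 858 in the LPD lines and 455, 315, 466, 378 and 578 in the NPD lines. LPD lines 6 and 20 were highest and the diets did not overlap (log2 fold change 1.49, SE 0.38, limma adjusted p = 0.519; two-sided exact permutation test, p = 0.00794). Hbegf, a ligand of the EGF receptor, had 604, 825, 1988, 1412 and 604 in the LPD lines and 284 to 562 in the NPD lines. Its log2 fold change was 1.21 (SE 0.32, limma adjusted p = 0.551), again with every LPD line above every NPD line (two-sided exact permutation test, p = 0.00794). Hmox1, heme oxygenase, had 1192, 1437, 1548, 3288 and 1599 in the LPD lines and 1109 to 1382 in the NPD lines (limma adjusted p = 0.988; two-sided exact permutation test, p = 0.0397). The median deviation of the target list from the NPD mean was -0.16, 0.01, 1.15, 0.59 and 0.09 in LPD lines 1, 4, 6, 20 and 40, and -0.15 to 0.50 in the NPD lines. The highest medians were those of LPD lines 6 and 20, but single targets differed in which lines were high, as in Lif, a cytokine named after its values were seen, with 339.5, 505, 405, 299.5 and 137 in the LPD lines. A relation between the members and the targets was not tested.

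Markers of other cell types were examined because lines can hold feeder cells or cells that differentiate. Of the feeder fibroblast markers, 0 of 10 tested had an unadjusted p under 0.05, with a median of -0.87, and Lum and Prrx1 reached the mean required for the test only through NPD. Their summed values were 14776, 13633, 20706, 18359 and 17687 in the LPD lines and 17818, 21750.0, 19217, 13661 and 18206 in the NPD lines, most of it Fn1 (11521 to 18433), which ESCs also make. Of the 12 markers, 1, 4, 0, 2 and 4 were at 0 in the LPD lines and 2, 0, 1, 0 and 2 in the NPD lines, among them Lum in 7 lines and Dcn in 4. The median deviation was 1.24 in LPD line 6 and 1.78 in NPD line 15, and -1.53 to -0.92 in the other LPD lines. In LPD line 6, Fosl2 (812), Fosl1 (163) and the target median (1.15) were the highest of all lines. In NPD line 15, Fosl2 (168) and the target median (0.50) were the highest of the NPD lines. Its Fosl1 (41.0) was level with that of NPD line 51 (40.9), where the marker median was -0.85. LPD line 20, with a marker median of -1.53, had a Fosl2 of 573, a Fosl1 of 79.2 and a target median of 0.59, and the part of feeder cells in these values was not tested.

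Of the primitive endoderm markers, all 9 tested had a log2 fold change above 0, as had the 10 members, with a median of 0.34 and 0 of 9 at an unadjusted p under 0.05. Their summed values were 31894, 20846, 12747, 18584 and 28214 in the LPD lines and 13304, 11334, 21198, 24244 and 19441 in the NPD lines, with Sparc the most abundant and Foxa2 at 0 in NPD line 15. The sum was highest in LPD lines 1 and 40, of which line 1 had the highest Fos, Fosb, Jun and Atf3 values and line 40 the lowest Fosb, Jun and Atf3 values in LPD. Of trophectoderm markers 0 of 7 had an unadjusted p under 0.05, with a median of 0.21, sums of 3350.1 to 10414 in LPD (the highest in line 6) and 3135 to 6382 in NPD, and Tfap2c the most abundant over all lines. In LPD line 6 the most abundant was instead Krt8, at 4577, against 724 to 914 in the other LPD lines, a gene named after its values were seen. Mesoderm markers were low, with sums of 19.6 to 50.8 in the 10 lines, and 1 of 5 could be tested, Gsc, with a log2 fold change of -0.75 (SE 0.48). In the ESC markers 0 of 10 had an unadjusted p under 0.05 and the median was -0.02. The part of these cell types in the values of the members was not tested.

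The genes nearest in pattern were those with the highest Pearson r to a member over the 10 lines, given as a description for the 3 members with the smallest p. The lines share the diet difference and their depth. For Jund, after the identical entry, these were Nppb (r = 0.947, Spearman rho 0.96) and Maff (r = 0.946, rho 0.94). Atf3 was nearest to Terf1 (r = 0.987, rho 0.94), Dusp8 (r = 0.964, rho 0.88) and Nfkbia (r = 0.955, rho 0.85). Terf1, a telomere protein, had a narrow range of 1463 to 1634 in LPD and 1378 to 1452 in NPD, while Nfkbia, the inhibitor of NF-kB, had 398 to 603 and 345 to 430.1. Among the genes nearest to Fosl1 were Fam107b (r = 0.940, rho 0.92) and Fam83h (r = 0.934, rho 0.84).

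Several members are neighbours in the genome. On chromosome 12 of GRCm38, 121753 bases separate Fos from Jdp2 and 46790 bases Jdp2 from Batf, and on chromosome 1, 61350 bases separate Batf3 from Atf3. The neighbouring members did not share a pattern, since LPD lines 1 and 4 stood out in Fos and not in Jdp2. Likewise, Atf3 differed without overlap where Batf3 overlapped in full. Batf, which is not a member and was too low to be tested, had 9.12, 8.64, 4.15, 6.07 and 6.32 in the LPD lines. Its NPD lines had 0.754 to 7.59. With 1 read worth 2.88 in LPD line 4, the order of these values rests on few reads. Jun, Junb and Jund have 1 exon each, and the Fos genes and Atf3 have 4 in the longest coding transcript.

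Promoter windows of 300 bases around the start were taken from RefSeq (GRCm38.p6) for 9 of the 10 members, all but Fosl1, because several members had their highest values in the same lines. The AP-1 element TGACTCA was in 0 of the 9 and in 5.20% of 32851 promoters, both strands being searched. The CRE element TGACGTCA, to which ATF factors bind, was likewise in 0 of 9 and in 1.79% of all. Its first part, TGACG, which is contained in TGACGTCA, was in 5 members (Fos, Fosb, Junb, Atf3 and Jdp2) and in 20.8% of all. A member was counted if any of its windows matched, whereas the shares of all are of single windows. The related element TGACATCA was in Jun alone and in 3.62% of all. TATAAA was in Fos and Junb and in 13.6%, GGGCGG in 7 members and in 35.7%, and the CArG box was in 0 members and in 1.63% of all. Bases outside the 300 were not searched, so a count of 0 does not show that a member lacks an element further from its start. The windows around the matches are shown to set the members side by side, 5′ to 3′ on the strand of the gene, with TGACG or its complement CGTCA, TGACATCA and TATAAA in capitals. They end before the start, which leaves out TATAAA of Junb, and for Jdp2, which has 3 windows, the match is in 1 of them. The Atf3 window shown lies inside the annotated gene, whose upstream end is at 191218039, so it belongs to an internal start.
Fos (chr12:85473741-85473882, plus strand): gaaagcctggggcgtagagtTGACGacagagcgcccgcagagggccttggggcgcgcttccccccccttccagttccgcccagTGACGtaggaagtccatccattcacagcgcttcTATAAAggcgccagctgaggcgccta
Fosb (chr7:19310081-19310125, minus strand): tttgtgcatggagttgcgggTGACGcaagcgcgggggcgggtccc
Jun (chr4:95052240-95052287, minus strand): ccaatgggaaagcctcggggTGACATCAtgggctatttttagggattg
Junb (chr8:84978830-84978874, minus strand): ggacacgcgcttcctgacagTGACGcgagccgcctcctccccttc
Atf3 (chr1:191183334-191183360, minus strand): ggaagctattaatagcattaCGTCAgc
Jdp2 (chr12:85599282-85599326, plus strand): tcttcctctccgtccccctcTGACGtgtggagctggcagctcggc
In Fos the matches to TGACG begin 129 and 66 bases before the start and TATAAA 33 bases before it, and in Jun TGACATCA begins 45 bases before. A match describes these letters only, and binding was not measured.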

How the data were processed

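The authors trimmed reads, quantified GRCm38 transcripts with Salmon and tested transcripts with Sleuth 0.30.0. They deposited a normalized signal per gene and line, an estimated count named as normalized with DESeq2, and how transcripts were summed to genes is not given in the sources used here. Groups followed the labels. Of 20206 genes, 19891 matched GENCODE M21 and 315 did not, and 540 genes share their values with another. Low values of genes with 1 transcript gave the value of 1 read (tolerance 0.15), but over all genes only 63.9% to 69.7% were whole, so no count model was used.

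A mean of 10 or more left 14354 genes, tested in limma 3.58.1 (R 4.3.3, lmFit and eBayes with a trend, no covariate) on log2(value + 1), with Benjamini-Hochberg adjustment over all of them. Single members were also tested by exact permutation of mean log2 values over 252 assignments. Members and gene lists were chosen with earlier results of these data known. Named were all members, in each other list up to 6 genes with an unadjusted p under 0.05 or else that with the smallest p, the most abundant markers and those at 0, Ddx3y, and 3 nearest genes for each of 3 members. Of the genes this covers, 1 is not reported. Krt8, Egr2, Egr3, Lif and the genes that overlap a member were added after seeing the data. Alternatives were pseudocounts of 0.1, 0.5 and 10, no filter or one at a mean of 100, quantile normalization, equal totals (rescaled to the same total), no trend, array weights, depth as a covariate, and lines left out. Python 3.11.15, numpy 2.4.6, pandas 2.3.3 and matplotlib 3.10.9 were used for the remaining steps.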

Additional observations from a re-analysis of the deposited data

Results flagged for a closer look

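Jdp2 in LPD line 6 had a value of 549.8, where the other LPD lines had 287 to 335. Its gap to the nearest line was 0.760 of the range of the group on the log2 scale, above the critical value of 0.71 for 5 lines. It was the 1 such value in 20 groups examined, 10 genes in 2 diets, and chance gives about 1 in 20. The cause was not tested.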

How the results depend on the processing

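Genes with an adjusted p under 0.1 in limma numbered 0 with all lines (721 at an unadjusted p under 0.05), 1 with array weights and 0 to 40 when single lines were omitted. The 40 were found without LPD line 40, and 1 each without LPD line 1, LPD line 20 and NPD line 8. Without LPD lines 1 and 4, chosen after seeing the data, 1 gene had an adjusted p under 0.1 and 1201 an unadjusted p under 0.05. Members with an adjusted p under 0.1 numbered 0 to 3 with each line left out, the 3 being Junb (1.84), Jund (0.48) and Atf3 (2.38) without LPD line 40. At an unadjusted p under 0.05, 7 members were higher, 4 by the exact permutation test and 5 to 7 with each line left out. They were 5 with depth as a covariate, 5 at a mean of at least 100, where Fosb and Fosl1 were not tested, 6 without a trend, 8 with array weights and 5 without LPD lines 1 and 4 or without LPD line 4 and NPD line 15. All genes at this p numbered 601 with depth as a covariate and 573 at a mean of at least 100. They numbered 751 without a trend, 837 with array weights and 610 without LPD line 4 and NPD line 15. With depth as a covariate the median of the members was 1.19, and Fosb had a log2 fold change of 2.29. Over 227 fold changes of single members under the alternatives, 222 kept their direction and their side of the threshold, 3 passed it as above, and 2 changed sign, Fos (-0.01) without LPD lines 1 and 4 and Jdp2 (-0.01) without LPD line 6 (-0.01 to 0.26 with single lines omitted). The median of the members, 1.30, was 1.12 to 1.61 with each line left out and 0.64 without LPD lines 1 and 4, and that of the other bZIP factors, 0.16, was 0.06 to 0.23 and -0.01 without LPD lines 6 and 20. These causes were not tested. No paired analysis was possible because the line numbers are not shared between the diets. Batf3 and Fosb rest on few reads in some lines.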
